A study of Rattus norvegicus with 30 samples.

Results

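The 3 transcripts described here were chosen because edgeR's quasi-likelihood test had called them for the high dose of mercury chloride in these same kidneys. They are 3 of the 40071 transcripts in the deposited files and 3 of the 21112 that passed the filter on low counts, and all were found by their Ensembl transcript ID in all 30 files. ENSRNOT00000001792 was the 1 transcript called between high dose and vehicle at 10 h (0.00474% of those tested). ENSRNOT00000027755 and ENSRNOT00000009094 were the 2 called for a high dose difference that changed from 10 to 34 h (0.00947%). Levels in the high dose and vehicle libraries are therefore given as a description, with no test, and they support nothing beyond the choice itself.

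Gene expression was measured by RNA sequencing of whole kidneys from Sprague-Dawley rats, an outbred stock, in 6 groups of 5 animals, 1 library per rat. Rats were given saline (vehicle, 1 ml/kg) or mercury chloride (HgCl2) at 0.25 mg/kg, the low dose, or at 0.50 mg/kg, the high dose. The organ was collected 10 or 34 h later. No group carried another treatment or an altered gene, per the labels, and the sources used here state neither the age nor the sex of the rats nor the route of dosing. Nothing in the labels says that a replicate number pairs animals between groups.

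Mercuric ions bind the thiol groups of proteins and glutathione and gather in the kidney, above all in the cells of the proximal tubule, the nephron segment that takes back most of the filtered solutes. These cells are lost after toxic doses, and injury and repair are both accompanied by changes in RNA across the organ. A whole kidney also holds the other nephron segments, vessels, glomeruli and immune cells, so that fewer cells of a type and less RNA per cell cannot be told apart in the levels below. The files carry transcript IDs with no gene names, and 0 cells of the reference table of 47357 genes hold an Ensembl transcript ID. The genes of the 3 transcripts, their function and their place in the genome were therefore not analysed here, no sequence is shown, and the labelled tissue was not checked against its marker genes.

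The transcripts' totals were 20.2 to 39.1 M estimated counts per library. The libraries that stand apart, as named below, are the 4 with 100 or more transcripts over 2-fold higher or lower than in any other library: vehicle replicate 2 at 10 h, high dose replicate 2 at 10 h and high dose replicates 3 and 4 at 34 h. No other library had more than 16 such transcripts. At 10 h each dose group was a single unbroken run of library numbers, so dose and run of numbers cannot be told apart then. No pair of libraries of a group agreed within sampling noise (lowest chi-square per degree of freedom 13.3, where sampling noise alone gives 1).

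Per length, ENSRNOT00000001792 was the most abundant of the 3, at a mean of 22.5 TPM over all libraries, followed by ENSRNOT00000027755 at 6.42 TPM and ENSRNOT00000009094 at 0.628 TPM (TPM, counts scaled to transcript length and to the same total in each library). Their lengths in the files are 1403, 2677 and 1887 bases. All 3 had whole estimated counts in every library, within 1e-06, as did 39.1% of the transcripts tested. A whole count shows that no read pair was divided between this target and another, though reads may still match elsewhere. From here on, levels are in CPM, counts scaled to the library's total over the tested transcripts, after TMM normalization, a scaling by a trimmed mean of the ratios between libraries.

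ENSRNOT00000001792 was higher in the high dose kidneys at 10 h than in any other kidney of the study, and at 34 h its high dose level overlapped those of the vehicle and the low dose. In the vehicle at 10 h, the 5 kidneys stood at 20.2, 17.1, 20.7, 20.8 and 20.98 CPM. With the low dose at 10 h they stood at 26.3, 19.7, 21.4, 21.5 and 20.3 CPM. With the high dose they stood at 33.2, 31.6, 29.6, 31.7 and 34.8 CPM. The high dose values at 10 h occupied the 5 highest places among all 30 libraries, and the next was a high dose kidney of 34 h at 27.3 CPM. Of all transcripts tested, 1.88% had the high dose above the vehicle at 10 h with no overlap of their libraries. The share with the high dose at 10 h above all other libraries was not counted.

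At 34 h the vehicle kidneys lay at 22.1, 23.6, 25.6, 25.3 and 24.3 CPM for ENSRNOT00000001792. The low dose kidneys lay at 21.2, 20.1, 19.2, 20.2 and 23.5 CPM. The high dose kidneys were spread from 11.7 to 27.3 CPM, with the others at 25.2, 20.3 and 19.4 CPM. The lowest of these, replicate 4, was also the lowest of all 30 libraries and is 1 of the 4 libraries that stand apart. Between the high dose groups, the level was 32.2 ± 1.98 CPM at 10 h and 20.8 ± 6.07 CPM at 34 h (SD, n = 5), with no overlap in the direction of a lower level at 34 h, as in 1.03% of all transcripts tested. The vehicle moved the other way, from 19.96 ± 1.64 to 24.2 ± 1.39 CPM, also with no overlap (0.876% of all transcripts lay higher at 34 h in this way).

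In the order of its group means, the high dose at 10 h exceeded the next group, the vehicle at 34 h, by more than the SD of either. The groups after it, in falling order the low dose at 10 h, the low dose at 34 h, the high dose at 34 h and the vehicle at 10 h, each differed from their neighbour by less than the larger SD. As log2 fold changes against the vehicle of the same time, the high dose gave 0.69 (SE 0.076) at 10 h and -0.22 (SE 0.185) at 34 h. The low dose gave 0.13 (SE 0.091) and -0.22 (SE 0.067). These low and high dose differences share their vehicle libraries. Against the vehicle, edgeR called 0.0332% of all transcripts with the low dose of 34 h, none of them among these 3. With the low dose of 10 h edgeR called 0% (1904 had an unadjusted p under 0.05, and DESeq2 called 76), and with the high dose of 34 h also 0% (1165 unadjusted, 41 by DESeq2). The SE is the size of the change divided by the square root of the F value of edgeR's test.

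The high dose difference at 34 h rested on the libraries that stand apart. Without high dose replicates 3 and 4, the log2 difference of ENSRNOT00000001792 at 34 h was 0.00492. Without all 4 libraries that stand apart, its change from 10 to 34 h was -0.63 instead of -0.91. Within the library numbers 41 to 45 at 34 h, the mean was 22.7 CPM in 2 high dose and 23.8 CPM in 3 vehicle libraries. Within 51 to 55 it was 19.5 CPM in 3 high dose and 24.8 CPM in 2 vehicle libraries. The log2 differences were -0.07 and -0.42, and the second run holds replicate 4. Without replicate 4 alone the difference at 34 h was -0.075, and with the run of numbers as a covariate it was -0.21 (SE 0.194), close to the -0.22 without it.

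**Figure D1:**
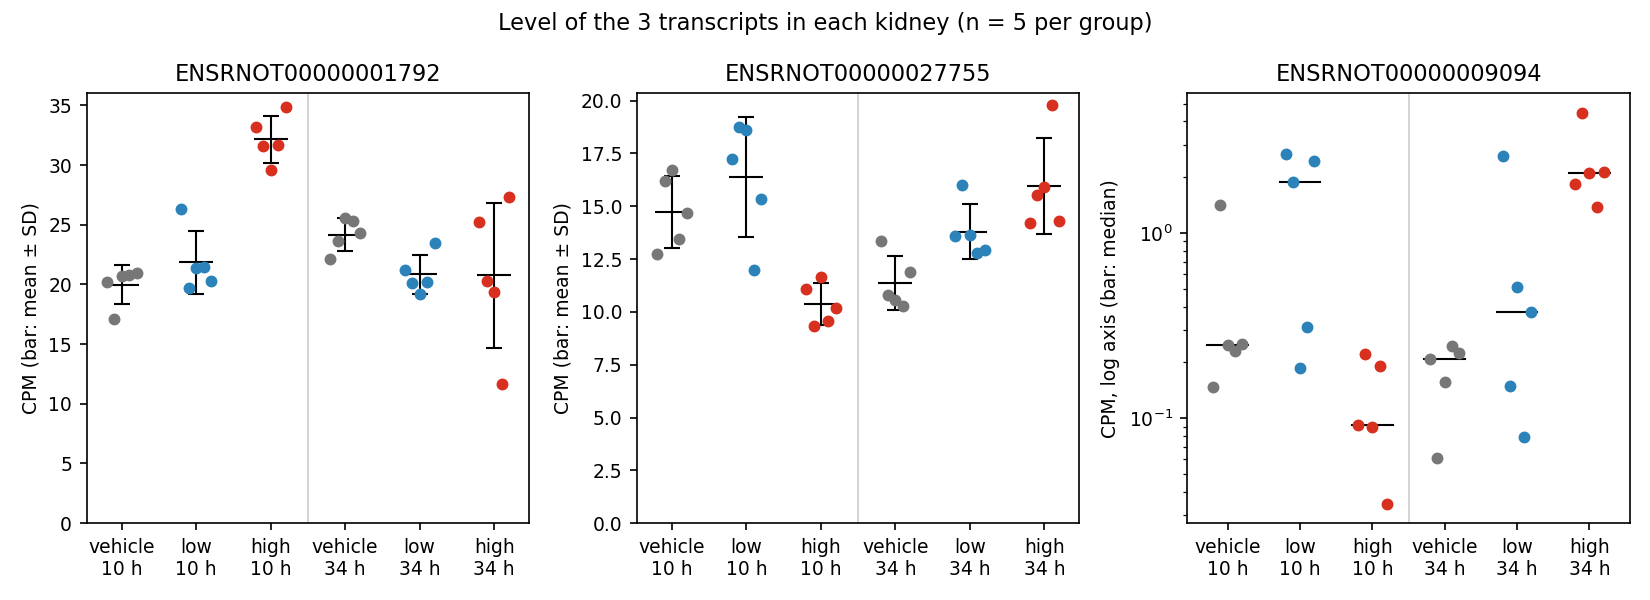
Level in CPM (vertical axes) of each transcript in every kidney, by group (horizontal axes, 5 points a group); bars show the mean ± SD, and the median on the log axis of the right panel. The high dose group at 10 h is the highest for ENSRNOT00000001792, at 29.6 to 34.8 CPM, and the high dose group at 34 h is the only one with all 5 kidneys over 1 CPM for ENSRNOT00000009094.

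ENSRNOT00000027755 lay lower with the high dose than with the vehicle at 10 h and higher than the vehicle at 34 h. At 10 h, the vehicle kidneys held 12.7, 16.2, 16.7, 13.5 and 14.7 CPM. The low dose kidneys held 17.3, 18.7, 18.6, 11.97 and 15.3 CPM. The high dose kidneys held 11.1, 9.34, 11.7, 9.58 and 10.2 CPM. Every high dose kidney lay below every vehicle kidney at 10 h, an order seen in 1.82% of all transcripts tested. Low dose replicate 4 was the lowest of its group, near the high dose kidneys, and 3 low dose kidneys exceeded every vehicle kidney.

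At 34 h the 5 vehicle kidneys held 13.3, 10.8, 10.5, 10.3 and 11.9 CPM of ENSRNOT00000027755. The low dose kidneys held 13.6, 16.02, 13.7, 12.8 and 12.9 CPM, above the vehicle in 23 of 25 pairs of kidneys. The high dose kidneys held 14.2, 15.6, 15.9, 19.8 and 14.3 CPM. Every high dose kidney lay above every vehicle kidney at 34 h, as in 0.658% of all transcripts tested. A separation below the vehicle at 10 h together with one above it at 34 h was present in 1 of the 21112 transcripts (0.00474%), this one, which had been chosen by that contrast. The opposite pair of separations was present in 4 (0.0189%).

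The means of ENSRNOT00000027755 ran from 16.4 ± 2.82 CPM (SD, n = 5) in the low dose at 10 h, through 15.95 ± 2.29 for high dose kidneys of 34 h, 14.7 ± 1.70 in the vehicle at 10 h and 13.8 ± 1.301 in the low dose at 34 h, to 11.4 ± 1.26 in the vehicle at 34 h and 10.4 ± 0.988 in the high dose at 10 h. Only the step from the low dose to the vehicle at 34 h, 2.42 CPM, was larger than the SD of both neighbours. The vehicle itself was thus 22.9% lower at 34 h than at 10 h, while the high dose was 53.9% higher at 34 h, with no overlap (as in 1.01% of all transcripts tested). Against the vehicle of its time, the high dose gave log2 fold changes of -0.51 (SE 0.102) at 10 h and 0.49 (SE 0.121) at 34 h. The low dose lay above the vehicle at both times, at 0.15 (SE 0.129) and 0.27 (SE 0.095). At 34 h, the low dose mean was between those of vehicle and high dose, and at 10 h it was not.

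The change of the high dose difference of ENSRNOT00000027755 from 10 to 34 h was 1.00 (SE 0.155) on the log2 scale, the value that chose it. It was 0.82 without the 4 libraries that stand apart, and the call was then lost. Within the library numbers 41 to 45 the high dose mean at 34 h was 14.9 CPM and the vehicle mean 11.6 CPM. Within 51 to 55 they were 16.7 and 11.1 CPM. As every high dose kidney exceeded every vehicle kidney at 34 h, both runs had to show this direction, which adds no support.

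**Figure D2:**
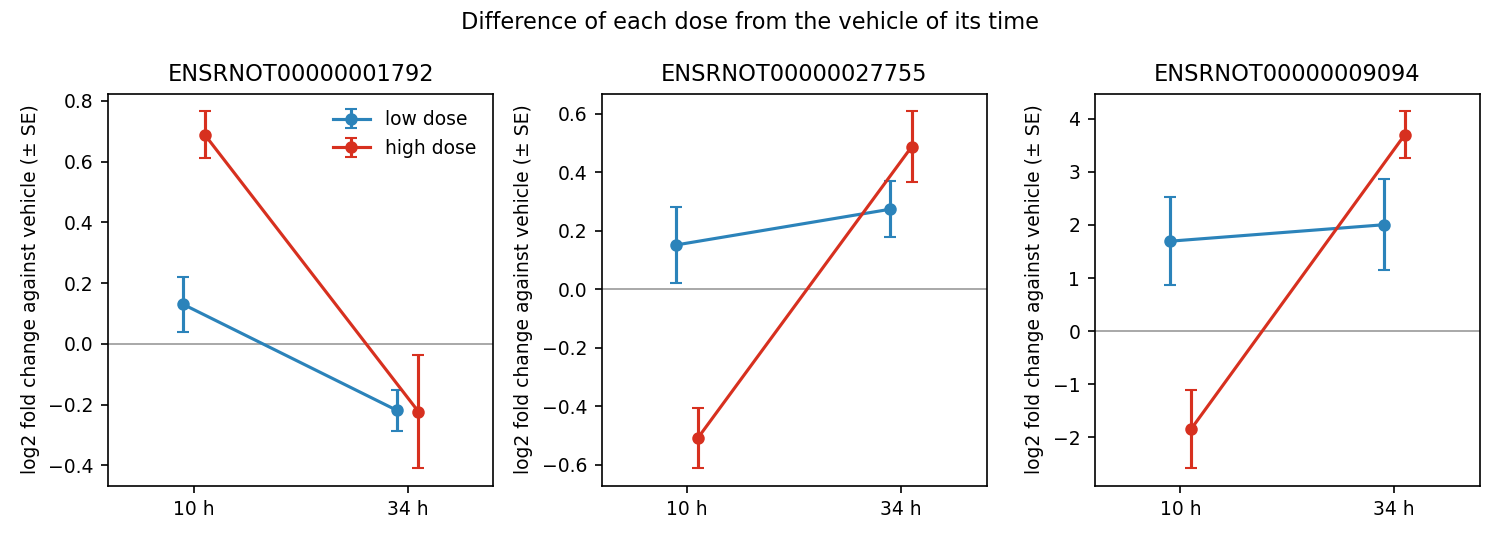
Log2 fold change of each dose against the vehicle of its time (vertical axes, each panel with its own scale), at 10 and 34 h, with its SE; lines join the same dose. The high dose crosses 0 between the times in all 3 panels, and the low dose stays above 0 for ENSRNOT00000027755 and ENSRNOT00000009094. For ENSRNOT00000001792 the low dose crosses 0 as well, from 0.13 to -0.22. Its high dose value at 34 h, -0.22 (SE 0.185), was 0.00492 without the libraries that stand apart.

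ENSRNOT00000009094 was scarce, and its kidneys fell far apart within some groups. Its counts ran from 1 to 120 per library and its level from 0.0346 to 4.44 CPM, a 128-fold range, against 2.99-fold and 2.12-fold for ENSRNOT00000001792 and ENSRNOT00000027755. It passed the filter, which asks for 5 libraries, with 12 over the cutoff of 0.331 CPM. All 5 high dose kidneys of 34 h were among them. The others were low dose replicates 1, 2 and 5 at 10 h and 1, 3 and 5 at 34 h, and vehicle replicate 2 at 10 h. These others were enough to pass it. Exactly 10 of 30 libraries were over 1 CPM, and no level lay between 0.510 and 1.38 CPM. The exact (Clopper-Pearson) 95% interval of the lowest library was 0.000876 to 0.193 CPM and that of the highest 3.68 to 5.31 CPM. These intervals cover counting error only, with each count taken as an independent draw. The reads carry no molecular identifiers by which this could be checked.

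At 10 h, the vehicle kidneys had 4, 45, 7, 7 and 7 counts of ENSRNOT00000009094. The low dose kidneys had 102, 62, 6, 8 and 77 counts. The high dose kidneys had 3, 6, 3, 6 and 1 counts. So 1 vehicle, 3 low dose and 0 high dose kidneys were over 1 CPM at 10 h, and the vehicle kidney with 45 counts is replicate 2, a library that stands apart. Groups overlapped in all comparisons with the vehicle at this time.

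At 34 h, the vehicle kidneys had 5, 2, 4, 7 and 7 counts. The low dose kidneys had 54, 4, 18, 2 and 14 counts. The high dose kidneys had 62, 120, 72, 44 and 66 counts. All 5 high dose kidneys, 1 low dose kidney and 0 vehicle kidneys were over 1 CPM, and the high dose lay above the vehicle with no overlap, as in 0.658% of all transcripts tested. High dose kidneys also exceeded the low dose kidneys in 21 of 25 pairs, the exceptions being those with low dose replicate 1 at 2.62 CPM.

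The group means of ENSRNOT00000009094 ran, with SD over n = 5, from 2.38 ± 1.19 CPM for high dose kidneys of 34 h through 1.502 ± 1.18 in the low dose at 10 h, 0.747 ± 1.06 in the low dose at 34 h, 0.459 ± 0.535 in the vehicle at 10 h and 0.179 ± 0.0734 in the vehicle at 34 h, down to 0.126 ± 0.0784 for high dose kidneys of 10 h. No step in this order was larger than the SD of both neighbours. Against the vehicle of its time, the high dose gave log2 fold changes of -1.85 (SE 0.732) at 10 h and 3.70 (SE 0.438) at 34 h. The low dose gave 1.69 (SE 0.832) and 2.004 (SE 0.855). The high dose difference at 34 h missed the threshold (edgeR adjusted p = 0.0849), and it was called in 4 of 11 other settings: DESeq2, log2(TPM + 0.1), the fit with genomic intervals and whole counts only. These values come from the libraries that chose the transcript and add no support.

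A single vehicle kidney carried much of the high dose difference of ENSRNOT00000009094 at 10 h. Without vehicle replicate 2 of 10 h, that difference was -0.80, the low dose difference 2.76 and the change of the high dose difference from 10 to 34 h 4.51 instead of 5.56. Within the library numbers 41 to 45 of 34 h, high dose libraries averaged 3.14 CPM and vehicle libraries 0.142 CPM. Within 51 to 55 the averages were 1.87 and 0.234 CPM. Both runs had to show this direction, because high dose and vehicle kidneys of 34 h did not overlap, so the split adds no support. For the low dose at 34 h, the log2 difference from the vehicle was 0.66 without low dose replicate 1, down from 2.004.

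The thresholds that chose the transcripts were narrow. In the comparison at 10 h, ENSRNOT00000001792 had an edgeR adjusted p of 0.0473, and the next transcript by p value had 0.126 with a log2 fold change of 0.49. The edgeR call of ENSRNOT00000001792 was lost in each of the 10 fits that left out 1 library of that comparison, with adjusted p between 0.0598 and 0.227, while its log2 fold change stayed between 0.63 and 0.71. It was kept in 5 of 11 other settings: DESeq2, voom with quality weights, the filter at 5 CPM, the single fit of all libraries and whole counts only. For the change of the high dose difference, ENSRNOT00000009094 and ENSRNOT00000027755 both had 0.0373, and the next 2 transcripts both had 0.103. Of 20 fits that each left out 1 library, ENSRNOT00000027755 was called in 6 and ENSRNOT00000009094 in 5.

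The 10 low dose libraries took no part in choosing any of the 3 transcripts, so the low dose at 34 h was tested against the low dose at 10 h. None of the 3 passed that edgeR test. ENSRNOT00000001792 differed by -0.07 (log2, SE 0.087, edgeR adjusted p = 0.864), with the later kidneys higher in 8 of 25 pairs. ENSRNOT00000027755 differed by -0.25 (SE 0.124, edgeR adjusted p = 0.604), higher at 34 h in 6 of 25 pairs. For ENSRNOT00000009094 the difference was -1.05 (SE 0.944, edgeR adjusted p = 0.79), higher at 34 h in 8 of 25 pairs.

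Of the 21112 transcripts, edgeR called 0 (0%) between the low dose times, and 1894 had an unadjusted p under 0.05. The same libraries gave 225 calls with DESeq2, 6 with voom and 0 with limma on log2(TPM + 1). The SE of ENSRNOT00000009094 was nearly as large as its difference, so that a change of this size was not detectable at this depth and spread. Its value was -2.38 without low dose replicate 1 of 34 h, and leaving out low dose replicate 1 of 10 h turned that of ENSRNOT00000001792 to 0.01. Without low dose replicate 5 of 10 h, edgeR called 5 transcripts, none of them these 3. Each low dose group is a single run of library numbers (31 to 35 and 46 to 50), so time and these runs cannot be told apart. Whether the change over time in the low dose differed from that in the high dose was not tested.

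The 3 transcripts differed in how far animals of the same group lay from each other. The pooled SD within groups of log2(CPM + 0.5) was 0.218 for ENSRNOT00000001792, 0.175 for ENSRNOT00000027755 and 0.683 for ENSRNOT00000009094, where the median of all tested transcripts was 0.24. Among transcripts within 2-fold of its own mean level, 68.5%, 39.4% and 86.1% had a smaller SD, in the same order. By this pooled value, ENSRNOT00000009094 and ENSRNOT00000001792 were more variable than most transcripts of their level, and ENSRNOT00000027755 was not. For ENSRNOT00000001792 this rested on the high dose at 34 h, where the SD was 0.467. In its other groups the SD was 0.0822 to 0.159, below 0.171, the median pooled SD of transcripts of its level.

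Pooled over the groups, counting error covered only part of this spread. The coefficient of variation (CV) within groups was 14.1% for ENSRNOT00000001792, against 3.83% from counting alone. For ENSRNOT00000027755 the values were 12.5% and 4.99%, and for ENSRNOT00000009094 89.5% and 32.2%. The CV of ENSRNOT00000009094 was 40.9% in the vehicle at 34 h and 62.2% in the high dose at 10 h. Those groups had its lowest mean counts, 5.0 and 3.8, where counting error weighs most. It was 117% in the vehicle at 10 h, 78.6% and 142% in the low dose at 10 and 34 h, and 50.1% in the high dose at 34 h. Counting error was not set against the CV of single groups. In single groups, the CV of ENSRNOT00000001792 was 5.73 to 11.9%, except in the high dose at 34 h, where it was 29.3%. Within that group, replicate 4 had the lowest level of ENSRNOT00000001792 and the highest of ENSRNOT00000027755, 19.8 CPM.

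**Figure D3:**
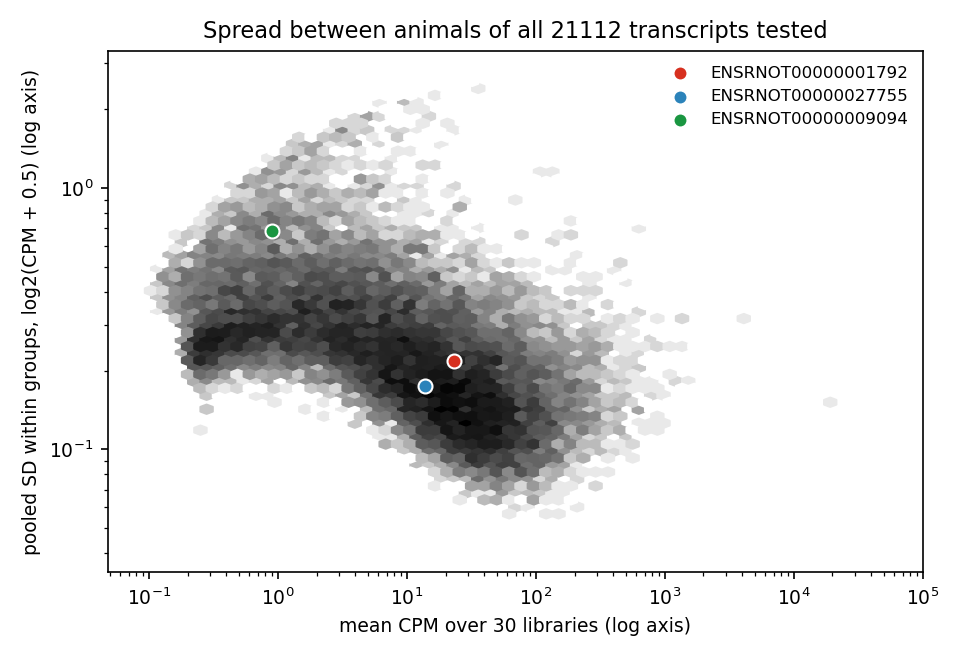
Pooled SD within groups of log2(CPM + 0.5) (vertical log axis) against the mean CPM over 30 libraries (horizontal log axis) for all 21112 tested transcripts, darker where more transcripts fall, with the 3 transcripts as coloured points. ENSRNOT00000009094, at 0.683, sits above most transcripts of its level, and the other two sit within the dense band.

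Across the 30 libraries, ENSRNOT00000001792 and ENSRNOT00000027755 ran in opposite directions. Pearson's r of their log2(CPM + 0.5) was -0.727 and Spearman's rho -0.681, and r was -0.653 without the 2 libraries farthest from the median of ENSRNOT00000001792. The deviations of single animals from their group means also ran in opposite directions, with r = -0.494. These values describe libraries whose groups chose the transcripts, and the points share their library and its scaling.

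ENSRNOT00000027755 and ENSRNOT00000009094 gave r = 0.574 over all libraries and 0.101 for the deviations from group means. Kidneys high in both were thus found mainly between groups and not within them. For ENSRNOT00000001792 and ENSRNOT00000009094, r was -0.348 over all libraries and 0.0623 within groups.

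**Figure D4:**
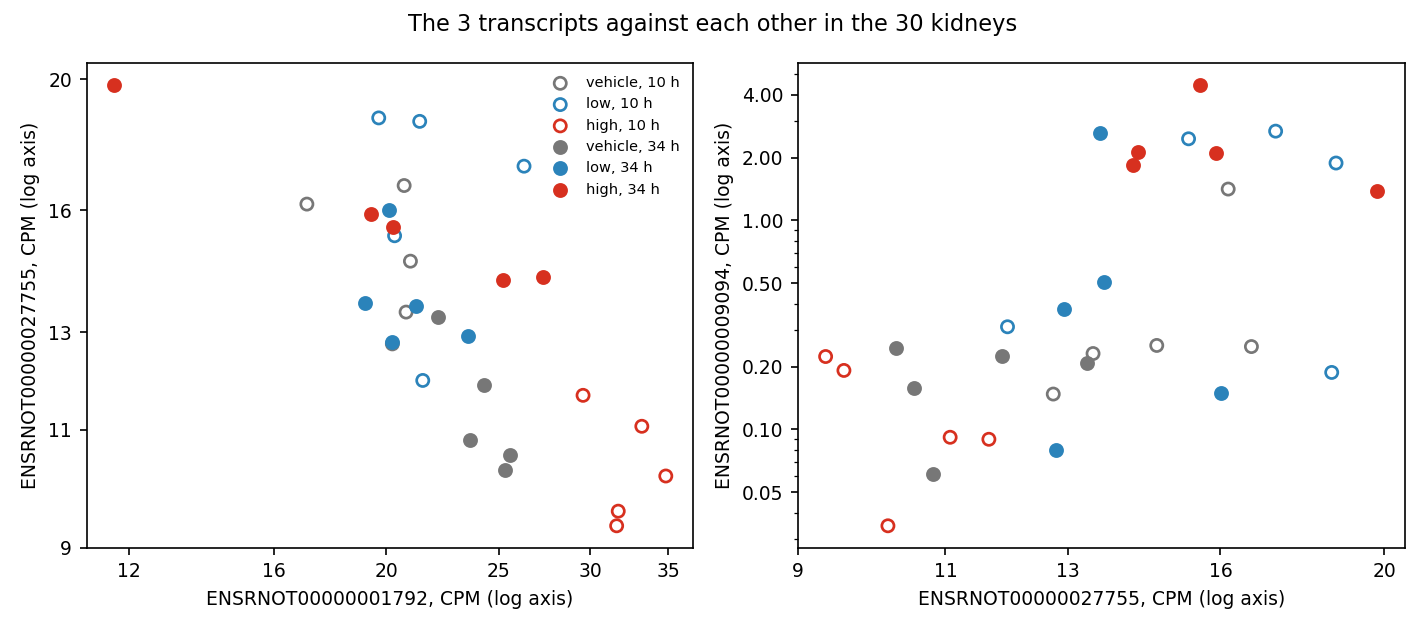
Levels in CPM (both axes log) of ENSRNOT00000027755 against ENSRNOT00000001792 (left) and of ENSRNOT00000009094 against ENSRNOT00000027755 (right); each point is a kidney, open at 10 h and filled at 34 h. On the left, the high dose kidneys of 10 h lie at the lower right and high dose replicate 4 of 34 h at the upper left, with r = -0.727 over all 30.

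The transcript most like each of the 3 was taken as the one with the highest Pearson correlation of log2(CPM + 0.5) over the 30 libraries, as a description. For ENSRNOT00000001792 it was ENSRNOT00000029485 (r = 0.900, and 0.787 within groups), a more abundant transcript whose counts were not all whole. At 10 h its level was 59.7 ± 6.87 CPM (SD, n = 5) with the high dose and 44.1 ± 4.43 CPM with the vehicle, and with the high dose at 34 h it was 44.95 ± 7.89 CPM. The following 2 transcripts had r = 0.861 and 0.860.

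For ENSRNOT00000027755 the most alike was ENSRNOT00000000718 (r = 0.865, and 0.775 within groups), with whole counts. At 10 h its high dose kidneys averaged 18.9 ± 3.26 CPM and its vehicle kidneys 25.8 ± 3.52 CPM, compared with 26.4 ± 5.98 and 20.1 ± 1.38 CPM at 34 h (SD, n = 5). Thus it lay below the vehicle at 10 h and above it at 34 h in its means, while its high dose and vehicle kidneys overlapped at both times. As it was picked for its correlation with ENSRNOT00000027755 over these same libraries, the shared order of means adds no support. The following 2 transcripts had r = 0.852 and 0.840.

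No transcript followed ENSRNOT00000009094 as closely. The most alike, ENSRNOT00000027665, had r = 0.704 (0.579 within groups) and means between 35.0 and 40.6 CPM in the 6 groups, a far narrower range. The following 2 had r = 0.653 and 0.651.

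The files also count reads on genomic intervals, named by their coordinates on the build Rnor_6.0. Of 14127 such intervals that passed the same level rule, the 2 most like ENSRNOT00000009094 were neighbours on chromosome 4, a search made after the levels had been seen. They span 96517799 to 96537798 (r = 0.895, and 0.835 within groups) and 96565112 to 96576526 (r = 0.753, and 0.756 within groups), and 27313 bp lie between them. Another interval nearby, at 96608107 to 96628106, had r = 0.737 but was too low to pass the level rule, with 111 counts in all 30 libraries. The fourth interval within 200000 bp of the pair, at 96379531 to 96399530, had r = -0.239. Whether ENSRNOT00000009094 is transcribed from this region was not tested.

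The interval at 96517799 had 0 to 26 counts per library. Its estimated counts were not all whole, so some reads were divided between it and another target, and its counts are given rounded. In the high dose at 34 h its counts were 17, 26, 23, 10 and 16, and in the vehicle at 34 h they were 0, 2, 0, 0 and 1. At 10 h the low dose kidneys had 23, 10, 0, 3 and 19 counts, where ENSRNOT00000009094 had 102, 62, 6, 8 and 77. The same 3 low dose kidneys were thus the highest of their group for both, in an interval picked for its likeness over these same libraries. This did not hold for the vehicle at 10 h, where replicate 2, with 45 counts of the transcript, had 6 counts of the interval (0.188 CPM), below replicate 3 with 0.214 CPM. The mean of the interval was 0.141 CPM with the high dose and 0.108 CPM with the vehicle, the opposite order to ENSRNOT00000009094. In the low dose at 34 h the interval had 12 counts in replicate 1 and 1 to 4 in the others, and replicate 1 was also the highest there for ENSRNOT00000009094. The second interval, at 96565112, was not near absent in the vehicle at 34 h, with 14, 12, 9, 13 and 10 counts. The high dose at 34 h had 13, 41, 15, 16 and 22 counts of it. These groups overlapped, with high dose replicate 1 at 0.385 CPM and vehicle replicate 1 at 0.584 CPM.

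**Figure D5:**
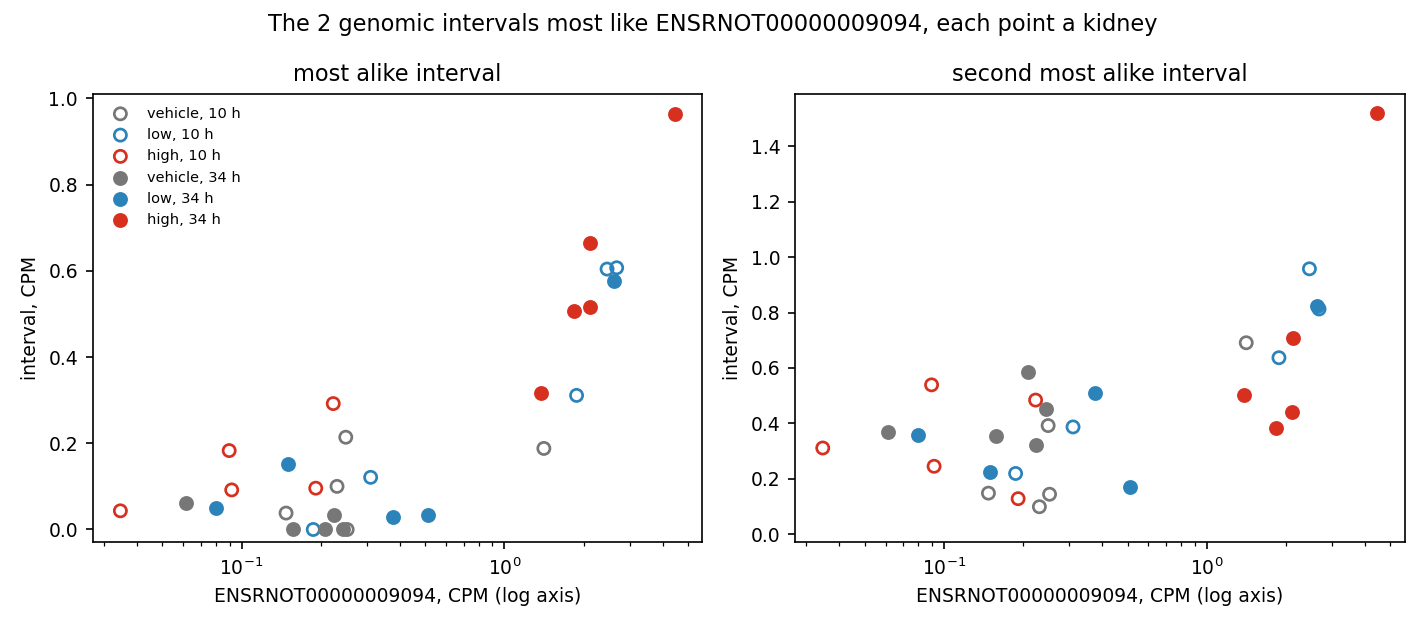
CPM of the 2 most alike genomic intervals (vertical axes) against CPM of ENSRNOT00000009094 (horizontal log axes); each point is a kidney, open at 10 h and filled at 34 h. The kidneys over 1 CPM of ENSRNOT00000009094 include all 5 of the high dose at 34 h, and r over the 30 libraries is 0.895 on the left and 0.753 on the right, on the log2(CPM + 0.5) scale.

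For comparison, the most alike intervals of ENSRNOT00000001792 (r = 0.802 and 0.790) lie on chromosomes 2 and 11, and those of ENSRNOT00000027755 (r = 0.809 and 0.802) on chromosomes 12 and 20. In neither case were the 2 intervals on the same chromosome.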

How the data were processed

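The authors' deposited files give, for each of 65166 targets (40071 transcripts and 25095 genomic intervals), an estimated count and a TPM value per library, with the target's length and effective length. Kallisto 0.42.2 and the build Rnor_6.0 are named in the submitters' processing notes; for its options and the choice of intervals the sources used here give nothing. Libraries were poly-A-enriched and stranded, per the labels' protocols.

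Estimated counts were rounded and tested with edgeR 4.0.16 (R 4.3.3; TMM, filterByExpr with a minimum count of 10, robust quasi-likelihood test on the groups compared, Benjamini-Hochberg adjustment over 21112 transcripts, called at an adjusted p under 0.05). The pipeline was tested on simulated data for the low dose times and for the change of the high dose difference only. Changes were placed in transcripts with a mean over 5 CPM, so the simulation does not cover ENSRNOT00000009094, and its outcome is not given here. DESeq2 1.42.0 and limma 3.58.1 (voom, and log2 of the deposited TPM + 1 or + 0.1) were alternatives, beside other filters, target sets and left-out libraries.

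The transcripts and lists were chosen with earlier results of these data known. The transcripts named as most alike were those with the highest Pearson correlation. The search over intervals was added after their values were seen.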

Additional observations from a re-analysis of the deposited data

Results flagged for a closer look

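The gap between the highest or lowest kidney and its nearest neighbour was divided by the range of the group. In 6 of the 18 groups examined (3 transcripts in 6 groups of 5 kidneys), this exceeded Dixon's 95% critical value for 5 samples. Chance gives that in about 1 in 20 groups of independent, normally distributed values. Levels in CPM need not be distributed so, and the 3 transcripts share their libraries. The 6 flags were therefore not tested against that rate. For ENSRNOT00000001792 these were low dose replicate 1 at 10 h, the highest of its group (0.727), and vehicle replicate 2 at 10 h, the lowest (0.810). For ENSRNOT00000027755 it was low dose replicate 2 at 34 h, the highest (0.731). For ENSRNOT00000009094 the highest kidney stood apart in the vehicle at 10 h (replicate 2, 0.917), in the high dose at 34 h (replicate 2, 0.758) and in the low dose at 34 h (replicate 1, 0.831). Vehicle replicate 2 at 10 h is also among the 4 libraries in which many transcripts stood apart.

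The high dose difference at 34 h exceeded that at 10 h by 1.00 for ENSRNOT00000027755 and by 5.56 for ENSRNOT00000009094 on the log2 scale. Both transcripts had been chosen by this difference between the times, so these values are no further evidence for it.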

How the results depend on the processing

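Of 399 alternative values of the 18 log2 differences, 19 moved by at least the transcript's pooled SD within groups, 16 of them for ENSRNOT00000009094. The low dose times were judged by their call alone, so shifts there were not counted, although their values are among the 399 and the 18. Between those times ENSRNOT00000009094 went from -1.05 to -2.38 without low dose replicate 1 of 34 h, and to -1.78 with voom. A change of sign was counted only where a difference was called, and 0 were found. Without a call, ENSRNOT00000001792 turned to 0.00492 (high dose, 34 h) and to 0.01 (between the low dose times). For ENSRNOT00000009094, log2(TPM + 1) gave -0.24 (high dose, 10 h), 1.20 (high dose, 34 h), 1.44 (change), 0.58 (low dose, 10 h) and 0.34 (low dose, 34 h), and log2(TPM + 0.1) gave -0.91, 2.91 and 3.82 for the high dose and 0.88 for the low dose at 34 h, where voom gave 1.04. Without the 4 libraries that stand apart, it gave -1.09 (high dose, 10 h) and 2.76 (low dose, 10 h), the change was -0.63 for ENSRNOT00000001792 and 0.82 for ENSRNOT00000027755, and the high dose difference of ENSRNOT00000001792 at 34 h was 0.00492. Leaving out 1 library moved ENSRNOT00000009094 from -2.14 to -0.80 (high dose, 10 h), 4.51 to 5.84 (change), 1.38 to 2.76 (low dose, 10 h) and 0.66 to 2.29 (low dose, 34 h). The filter at 5 CPM left it without a value.

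The numbers of transcripts called depended on the tool. For the high dose at 10 h (1 in the report), DESeq2 called 975, a single fit of all libraries 62, and DESeq2 size factors in edgeR, no filter, both TPM scales and leaving out the libraries that stand apart 0. For the high dose at 34 h (0), DESeq2 called 41, whole counts only 3, and log2(TPM + 0.1) and the fit with genomic intervals 1. For the change of the high dose difference (2), DESeq2 called 156, voom 4, no filter and log2(TPM + 1) 0, and the filter at 5 CPM, the single fit, the fit with intervals and the fit without the libraries that stand apart 1. For the low dose, DESeq2 called 76 at 10 h (0 by edgeR) and 443 at 34 h (7), where voom called 1, the fit with intervals 4, and the single fit and whole counts only 0. Between the low dose times (0), DESeq2 called 225, voom 6, the single fit and the fit with intervals 2, and whole counts only 1. Leaving out 1 library gave 0 to 1 calls in both high dose comparisons with the vehicle, 0 to 5 for the change (0 in 13 of 20 fits, 5 without high dose replicate 2 of 10 h), 0 to 3 and 1 to 4 for the low dose at 10 and 34 h, and 0 to 5 between the low dose times. The cause of these differences was not tested.

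No paired analysis was possible because the labels give no replicate numbers, and those used here only name the samples in order. Depth limits ENSRNOT00000009094 most, with as few as 1 count in a library.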
